A study of Arabidopsis thaliana with 30 samples.

Results

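Roots of an uninduced transgenic Arabidopsis thaliana line were set against roots of wild type plants in 6 arrays, 3 per group, out of 30 arrays in the series. The line carries AtNIGT1.2-VP under estradiol control and was taken without estradiol. The members were chosen by the sample labels alone. Mock VP seedlings were 10 days old, having been moved at day 9 to MGRL plates with 5 mM NH4NO3 and no estradiol for 24 hours. Wild type (Col-0) seedlings of the same age had been moved at day 7 to MGRL plates with 5 mM NH4NO3 for 3 days. All seedlings had first grown on Murashige-Skoog agar with sucrose under long days. Line, age at transfer and time on the new plates therefore differ together and cannot be told apart. The labels do not spell out VP, and do not give the parent accession of the line, the number of transformants, the promoters or a solvent for the mock plates. 3 further root groups were used beside the main pair: the VP line given 10 mM estradiol (the dose as the labels state it), and an AtNIGT1.2 overexpressor and wild type, both moved at day 7 to plates without a nitrogen source for 3 days. Shoots of the mock VP and sufficient wild type groups were also used.

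AtNIGT1.2 belongs to the NIGT1 (HHO) family of GARP transcription factors, which are induced by nitrate and repress genes of nitrate uptake and nitrogen starvation. Nitrate itself is taken up by NRT2 and NPF transporters, reduced by nitrate reductase and nitrite reductase, and assimilated through glutamine. A root also adjusts sulfur, iron and phosphate uptake, auxin transport and defence compounds to its nitrogen supply, and many of these genes follow the circadian clock and sugar supply.

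Levels are RMA log2 values, so a difference of 1 is a doubling, and each difference is mock VP minus wild type ± the standard error of the limma fit over 15 root arrays. Across 15922 probe sets tested, 2893 (18.2%) passed an adjusted p of 0.05. Of these, 1922 (12.1%) were higher in mock VP roots and 971 (6.1%) lower. With 1 probe set per gene, 1799 of 15086 genes (11.9%) were higher and 925 (6.13%) lower, and these 2 shares are the background for the counts of gene groups below. Most differences were small: 20 genes (0.133%) were higher by at least 1 and 31 (0.205%) were lower by at least 1. The median difference over all probe sets was 0.047, and array medians were 7.021 to 7.066 in mock VP roots against 6.924 to 6.995 in wild type roots. The direction of the small differences depended on this offset. Higher probe sets made up 66.4% of calls with the values as deposited, 51.5% (1378 higher, 1297 lower) after quantile normalization and 37.8% (1017 higher, 1677 lower) after centring each array on its median. Without mock VP replicate 1 the calls fell to 1612 (964 higher, 648 lower), without wild type replicate 2 to 2032 (1214 higher, 818 lower).

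**Figure D1:**
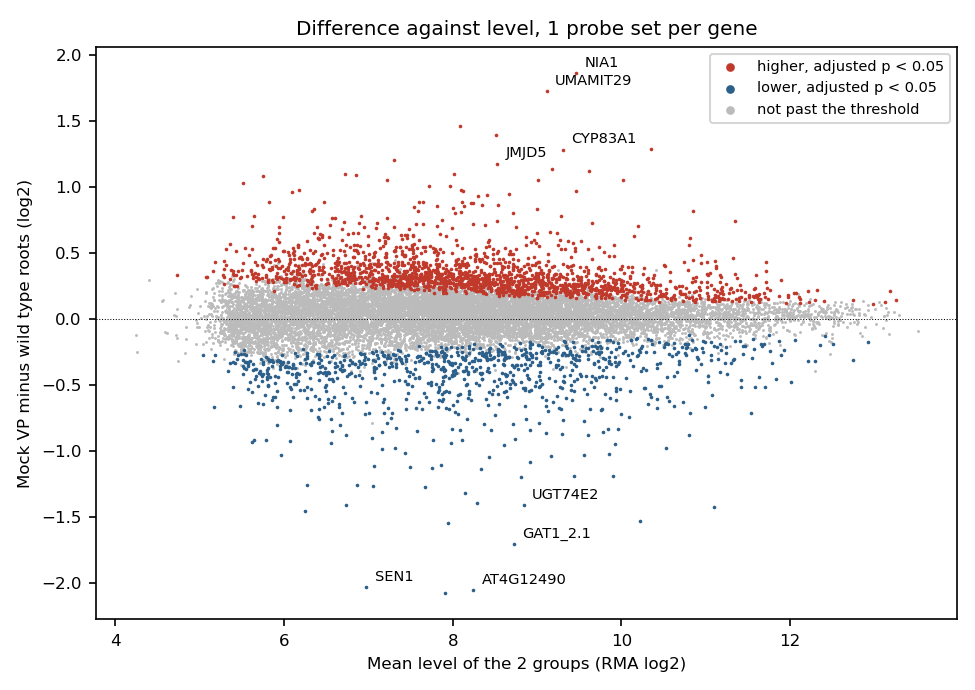
Difference between mock VP and wild type roots (vertical axis, log2) against the mean level of the 2 groups (horizontal axis, RMA log2), with a point per gene. Red points are higher and blue points lower in mock VP roots at an adjusted p under 0.05. The 51 genes that differ by at least 1 lie at low to fairly high levels, with none among the brightest genes, and NIA1 has the largest rise at 1.86.

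The tissue labels were set against marker genes. All 10 root markers were measured and 2 of them (PRP3 and SHR) were higher in mock VP roots, with summed linear intensities of 17534 to 18638 in mock VP roots against 17839 to 18461 in wild type roots. BGLU23, the brightest (log2 13.47 in mock VP and 13.56 in wild type roots), weighed most in these sums. It also ranked at the 98.1th percentile in wild type shoots. GL2 ranked at 47.9 in wild type roots and 46.1 in wild type shoots. The sums are therefore no measure of root content. Of 10 shoot markers, 6 could be tested and all 6 were lower. Their summed intensities were 2211 to 2704 in mock VP roots against 3824 to 3961 in wild type roots, with no overlap. The 7 on the array, among them the untested GLK1, had a median rank at the 74.8th percentile of the array in mock VP roots. This compared with the 86.9th in wild type roots and the 99.8th in wild type shoots. GLK1 itself ranked at 27.4 in mock VP and 25.3 in wild type roots. Whole roots are a mixture of cells, so fewer cells of a type and less RNA per cell cannot be told apart in any result below.

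The transgene's own gene came first. NIGT1.2 read 9.23, 9.23 and 9.17 in mock VP roots against 9.04, 8.83 and 8.93 in wild type roots, a difference of 0.28 ± 0.06 (adjusted p = 0.0019). The mock VP arrays lay above all wild type arrays, as they did or the reverse for 32.9% of all genes tested. The same probe set averaged 13.33 in estradiol-treated VP roots and 13.67 in the starved overexpressor, so the mock level was far from the induced ones. Its relative HHO5 was lower, at 8.18, 8.30 and 8.28 in mock VP roots against 8.70, 8.76 and 8.73 in wild type roots (-0.47 ± 0.07, adjusted p = 0.000127). The other 5 family members did not pass: HHO6 0.19, NIGT1.3 0.14, NIGT1.4 0.04, NIGT1.1 0.01 and HHO4 -0.05. The signs of NIGT1.4 and NIGT1.1 turned with array centring, and those of NIGT1.4, NIGT1.1 and HHO4 with the removal of single arrays. NIGT1.4 became -0.03 without mock VP replicate 1 and -0.02 without wild type replicate 1. NIGT1.1 became -0.05 without mock VP replicate 1 and -0.02 without wild type replicate 2. HHO4 became 0.02 without mock VP replicate 3 and 0.07 without wild type replicate 2.

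Nitrate assimilation held the largest rise of the comparison. NIA1, the lesser of the 2 nitrate reductases in many tissues, read 10.65, 10.39 and 10.15 in mock VP roots against 8.66, 8.64 and 8.29 in wild type roots. The groups were separated by more than 1 log2 unit, and the difference was 1.86 ± 0.11 (adjusted p = 2.54e-10). NIR1, the nitrite reductase of the plastid, read 11.49, 11.25 and 11.23 in mock VP roots against 10.91, 10.91 and 10.84 in wild type roots (0.44 ± 0.06, adjusted p = 2.26e-05). UPM1, which makes the sirohaem cofactor of nitrite reductase, rose by 0.35 ± 0.06. Of 12 genes of reduction and reductant supply, 9 were higher and none lower, with a median of 0.24 against 0.05 over all genes. G6PD3, a plastid enzyme of reductant supply, rose by 0.55. The others that rose were RFNR2 (0.34), a ferredoxin reductase of roots, PGD3 (0.26), PGD1 (0.18) and FD3 (0.22). NIA2, the main nitrate reductase, differed by 0.17 ± 0.05, and its call was lost without mock VP replicate 1 (0.14), wild type replicate 1 (0.14) or wild type replicate 3 (0.14), and after array centring (0.10).

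Nitrate transporters moved both ways. NPF6.3 (NRT1.1), the dual-affinity transporter and nitrate sensor, read 11.95, 11.94 and 11.89 in mock VP roots against 11.40, 11.52 and 11.55 in wild type roots (0.43 ± 0.06, adjusted p = 1.65e-05). NRT2.1, the main high-affinity transporter of the root, read 10.45, 9.96 and 9.86 in mock VP roots against 9.37, 9.47 and 10.01 in wild type roots. Its groups overlapped, and the difference of 0.47 ± 0.13 (adjusted p = 0.0151) fell short of the threshold without mock VP replicate 1 (0.29), wild type replicate 1 (0.35) or wild type replicate 2 (0.40). NRT2.7, which loads nitrate into vacuoles of seeds, was lower by -0.47 ± 0.10. NPF6.2 (NRT1.4) was lower by -0.49 ± 0.13, a call lost without mock VP replicate 1 (-0.30). The starvation-induced NRT2.4 (-0.14) and NRT2.5 (-0.13) did not pass, and NRT2.4 turned to 0.03 without wild type replicate 2. In all, 6 of 22 transport genes were higher and 4 lower (median -0.02). The count of higher genes fell to 2 without mock VP replicate 1, wild type replicate 1 or wild type replicate 2, and to 3 after array centring. The count of lower genes fell to 1 without mock VP replicate 1 and to 2 without wild type replicate 3.

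Among genes that handle glutamine and asparagine, GAT1_2.1 stood out. This class I glutamine amidotransferase read 7.56, 7.79 and 8.27 in mock VP roots against 9.62, 9.45 and 9.68 in wild type roots, a difference of -1.71 ± 0.13 (adjusted p = 1.33e-08). GDH2, a glutamate dehydrogenase, was lower by -0.34 ± 0.05. ASN1, the dark-induced asparagine synthetase, was lower by -0.68 ± 0.18, a call lost without mock VP replicate 1 (-0.51) or wild type replicate 3 (-0.59). GLN1;4, a cytosolic glutamine synthetase, was higher by 0.43 ± 0.10, a call lost without mock VP replicate 1 (0.34), and GLT1, the NADH glutamate synthase, was higher by 0.30. The list stood at 3 higher and 3 lower of 14, with 1 higher without mock VP replicate 1. AMT1;2, an ammonium transporter of the endodermis and cortex, rose by 0.37 ± 0.07, and AMT2 fell by 0.29 on the log2 scale. Their list, with urea and amino acid transporters, had 3 higher and 2 lower of 12, and 1 higher and 1 lower without mock VP replicate 1. Without wild type replicate 2 it had 1 lower. Nitrogen regulators had 5 higher and none lower of 20, and 3 higher without mock VP replicate 1, mock VP replicate 2 or wild type replicate 3. Without mock VP replicate 1 or wild type replicate 1, 1 was lower, and array centring gave 3 higher and 2 lower. They included NLP6, a nitrate-response activator (0.42 ± 0.09), and the nitrate-induced repressors LBD39 (0.37 ± 0.08) and LBD38 (0.32 ± 0.07).

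**Figure D2:**
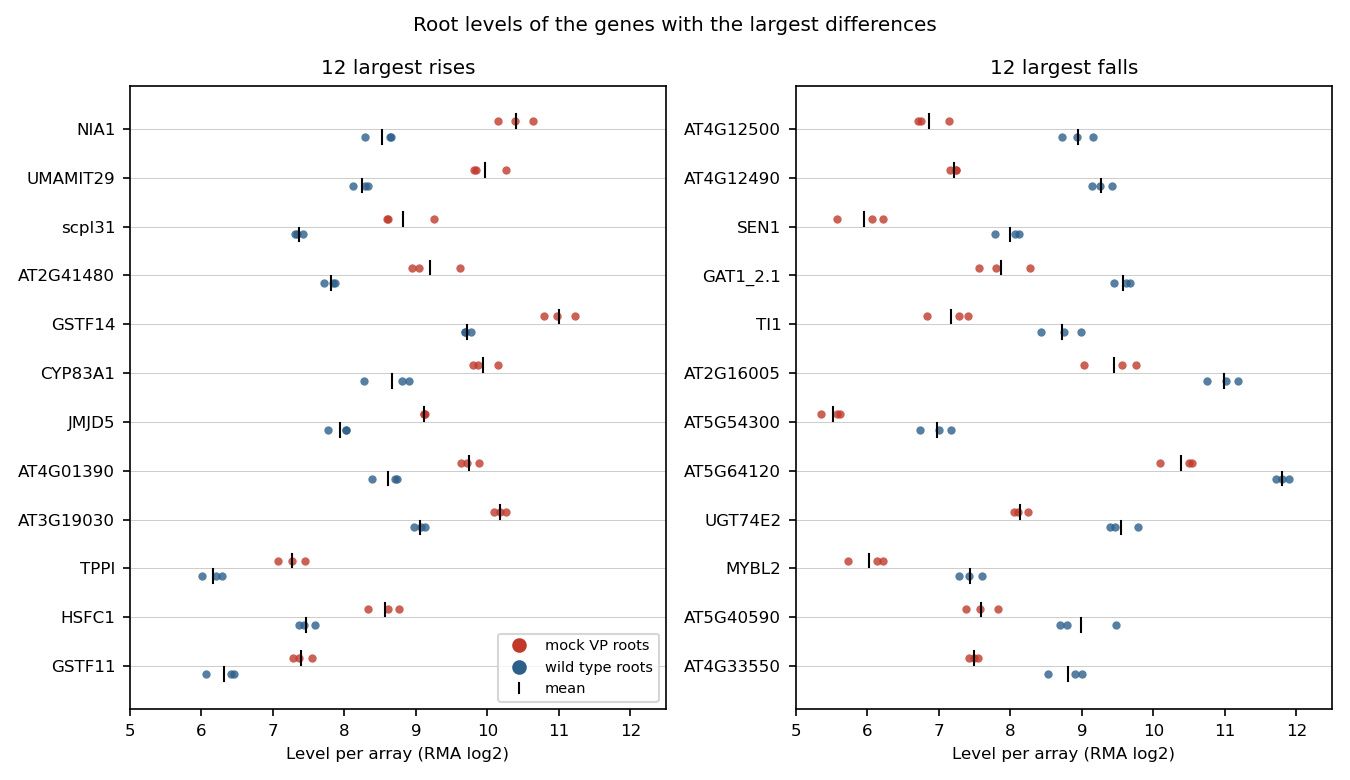
Level on each array (RMA log2) of the 12 genes with the highest and the 12 with the lowest difference among called genes whose groups do not overlap. Red points are the 3 mock VP arrays, blue points the 3 wild type arrays, and black ticks the group means. NIA1 has the largest mean difference on the left and AT4G12500 on the right, at 1.86 and -2.08.

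Aliphatic glucosinolate synthesis rose almost as a whole. These sulfur-rich defence compounds of Brassicales are built from methionine by chain elongation in the plastid, formation of the core in the cytosol and sulfation. The list of 22 loci was drawn up after the values had been seen, so its count is a description. Of 15 genes measured, 14 were higher and none lower, with a median of 0.78, and the count was 14 under each scaling and with each single array left out. BCAT4, the aminotransferase that starts elongation, read 10.72, 10.39 and 10.54 in mock VP roots against 9.74, 9.75 and 9.01 in wild type roots (1.05 ± 0.13, adjusted p = 7.31e-06). The mock VP arrays were the higher ones throughout, and wild type replicate 3 was the lowest array. Of the elongation enzymes, the condensing enzymes MAM1 and MAM3 rose by 0.78 ± 0.07 and 0.42 ± 0.07. The isomerase subunits IPMI1, IPMI2 and IIL1 rose by 1.06, 0.80 and 0.46. BAT5, the plastid carrier of the keto acids, rose by 0.86 ± 0.10.

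Core synthesis followed the same direction. CYP83A1, which oxidises the aldoximes, read 10.16, 9.80 and 9.87 in mock VP roots against 8.81, 8.90 and 8.27 in wild type roots (1.28 ± 0.11, adjusted p = 1.38e-07). The glutathione transferases GSTF11 and GSTU20 rose by 1.09 ± 0.10 and 0.83 ± 0.10, the glucosyltransferase UGT74C1 by 0.54, and the sulfotransferases SOT18 and SOT17 by 0.56 and 0.49. GGP1, which processes the glutathione conjugates of both glucosinolate branches, did not pass (0.10). MYB28, the main activator of the aliphatic branch, read 8.26, 8.20 and 8.28 in mock VP roots against 7.74, 7.49 and 7.27 in wild type roots (0.75 ± 0.09, adjusted p = 6.63e-06). The list for glucosinolates in general, which leans to the indole branch and the steps that both branches use, had 3 higher and 1 lower of 15. The higher ones were MYB28, which the aliphatic list also holds, UGT74B1 (0.27) and SUR1 (0.25). The lower gene was MYB51, an activator of the indole branch (-0.47 ± 0.14), whose call was lost without mock VP replicate 1 (-0.32) or wild type replicate 1 (-0.31).

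Sulfur assimilation, which feeds these compounds, moved both ways, with 2 higher and 2 lower of 14. APR1 and APR3 are reductases of activated sulfate. APR1 read 9.59, 9.53 and 9.56 in mock VP roots against 9.07, 9.01 and 8.63 in wild type roots (0.65 ± 0.08), and APR3 read 9.77, 9.87 and 9.87 against 10.39, 10.37 and 10.38 in wild type roots (-0.54 ± 0.06). Their groups did not overlap in either case, in opposite directions. LSU2 rose by 0.51 ± 0.11 and LSU1, another gene of the sulfur-deficiency response, was lower by -0.68 ± 0.14.

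Of 21 genes that respond to sugar status, 9 were lower, 2 higher and 10 without a call, with a median of -0.30. SEN1 (AT4G35770), a dark-induced gene that sugar represses, read 5.58, 6.07 and 6.22 in mock VP roots against 8.12, 7.79 and 8.06 in wild type roots (-2.04 ± 0.13, adjusted p = 1.10e-09). The mock VP arrays were lower by more than 1 log2 unit throughout. BCAT2, an aminotransferase of branched-chain amino acid breakdown, read 6.18, 6.3 and 6.24 in mock VP roots against 7.44, 7.67 and 7.38 in wild type roots (-1.26 ± 0.11). SWEET12, a sucrose exporter of the phloem, read 7.29, 8.02 and 7.99 in mock VP roots against 8.87, 9.0 and 8.85 in wild type roots (-1.14 ± 0.17). DIN10 (-0.45), the class II trehalose phosphate synthases TPS8 (-0.66) and TPS11 (-0.46) and the sugar importer STP13 (-0.37) were among those that fell. The higher ones were TPS5 and the vacuolar fructose carrier SWEET17, and 1 of these 2 passed when any single array other than wild type replicates 1 and 3 was left out. After quantile normalization 1 passed, and after array centring or in a fit of the 6 arrays alone neither did. TPPI, a trehalose phosphate phosphatase outside the list, rose to 7.45, 7.27 and 7.08 in mock VP roots, against 6.29, 6.21 and 6.0 in wild type roots (1.1 ± 0.11).

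Of 23 photosynthesis genes tested, 17 were lower and none higher, with a median of -0.51. LHCB3, an antenna protein of photosystem II, read 8.51, 8.62 and 8.81 in mock VP roots against 9.65, 9.71 and 9.71 in wild type roots (-1.04 ± 0.07, adjusted p = 7.37e-09). LHCA3, an antenna protein of photosystem I, was lower by -0.95 ± 0.11, the photosystem I subunit PSAD1 by -0.92 ± 0.11 and LHCA1 by -0.79 ± 0.08. With single arrays left out, 16 to 19 were lower. The fall took in antenna proteins, both photosystems, the oxygen-evolving complex (PSBO1 -0.51) and the Calvin cycle (RCA -0.76, GAPB -0.62). All 6 shoot markers that were lower are among these 17 genes. The part of shoot or green tissue in this result was not tested.

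**Figure D3:**
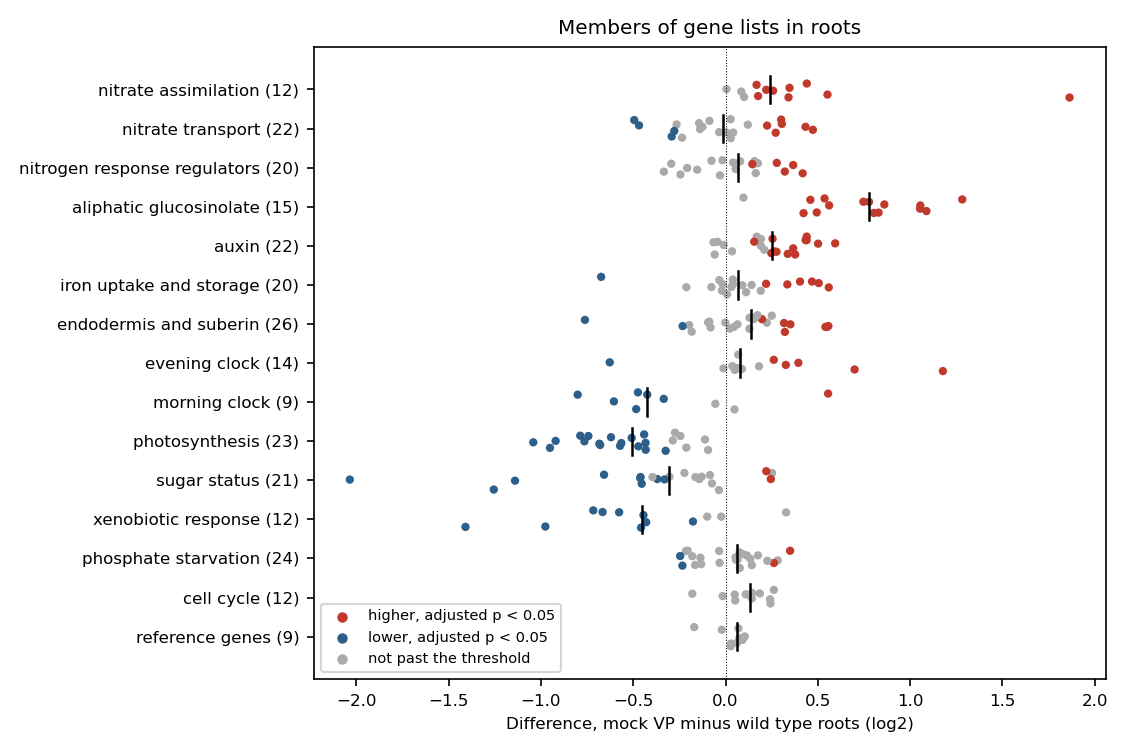
Difference of each measured gene (log2, mock VP minus wild type roots) in 15 gene groups, with the number of genes measured in brackets. Black ticks are group medians, and colour marks the genes past an adjusted p of 0.05. Photosynthesis, xenobiotic response, sugar status and the morning clock lie mostly below 0, nitrate assimilation, auxin and aliphatic glucosinolates mostly above.

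The xenobiotic response, made up of glutathione transferases, a glucosyltransferase and cytochromes P450 that TGA factors induce after chemical stress, was lower. UGT74E2, a glucosyltransferase of indole-3-butyric acid, read 8.24, 8.11 and 8.06 in mock VP roots against 9.46, 9.39 and 9.78 in wild type roots. All mock VP arrays lay below all wild type arrays, and the difference was -1.41 ± 0.08 (adjusted p = 1.67e-10). CYP81D11 read 9.85, 10.24 and 10.03 in mock VP roots against 10.93, 11.02 and 11.10 in wild type roots (-0.98 ± 0.08). Of 12 genes, 9 were lower and none higher, with a median of -0.45. The 9 included GSTU24 (-0.72 ± 0.06), GSTU4 (-0.67 ± 0.13), GSTU25 (-0.58), and GSTU1 and GSTU2, which are close neighbours in sequence and may share probe signal. Without wild type replicate 1, 1 gene of the list was higher.

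Clock genes and genes linked to the clock were held in a morning and an evening list, which were not tested against each other. The time of day at which each member peaks, CDF3 among them, was not measured here, so a list does not fix it. JMJD5, a JmjC-domain protein expressed in the evening, read 9.11, 9.11 and 9.13 in mock VP roots against 8.02, 7.77 and 8.03 in wild type roots (1.18 ± 0.07, adjusted p = 4.93e-10). COR27, another evening gene, was higher by 0.70 ± 0.13, and ELF4, a subunit of the evening complex, by 0.39 ± 0.06. PRR3 (0.33) and TOC1 (0.26) were higher too, and CDF3, a DOF repressor, was lower (-0.63 ± 0.14). The evening list had 5 higher and 1 lower of 14, with 3 higher without mock VP replicate 1 or wild type replicate 2 and after array centring. On the morning side, 6 of 9 genes were lower and 1 higher (median -0.42). LNK2, a coactivator, read 5.67, 5.45 and 5.43 in mock VP roots against 6.32, 6.21 and 6.41 in wild type roots (-0.80 ± 0.10), and LHY, a core repressor, was lower by -0.48 ± 0.09. RVE2 was the higher gene (0.56 ± 0.11). The labels do not state the hour of harvest.

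Of 22 auxin transport and signalling genes, 13 were higher and none lower, by small amounts. PIN3, an efflux carrier of the columella and stele, read 9.92, 9.69 and 9.84 in mock VP roots against 9.20, 9.25 and 9.22 in wild type roots (0.59 ± 0.06, adjusted p = 1.92e-06). The related carriers PIN7 and PIN4 rose by 0.50 and 0.28, and the influx carriers LAX3 and AUX1 by 0.43 and 0.16. The synthesis gene TAR2 (0.38), the response factor ARF7 (0.37) and its lateral root target LBD16 (0.26) rose with them. The median of the list was 0.25, and 8 genes were higher after array centring. GH3.5, which conjugates auxin to amino acids, was higher by 0.44 ± 0.10, and by 0.29 without wild type replicate 2.

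Cytokinin genes had 3 higher and none lower of 17, and 1 higher after array centring. CYP735A2, the hydroxylase that makes trans-zeatin and is induced by nitrate, read 9.76, 9.94 and 10.13 in mock VP roots against 8.92, 9.03 and 8.97 in wild type roots (0.97 ± 0.10, adjusted p = 7.73e-07). All mock VP arrays were above all wild type arrays. The calls of CKX6, a cytokinin oxidase (0.35), and of the response regulator ARR4 (0.21) were lost with single arrays left out. CKX6 was at 0.34 without mock VP replicate 1, 0.31 without mock VP replicate 3 and 0.26 without wild type replicate 1. ARR4 was at 0.20 without mock VP replicate 2 and 0.17 without wild type replicate 3.

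Among iron genes, ferritins were higher and 1 regulator was lower. The ferritins FER1, FER3 and FER4, which store iron in plastids and mitochondria, were higher by 0.56 ± 0.05, 0.50 ± 0.08 and 0.47 ± 0.08. FER1 read 11.15, 11.03 and 11.07 in mock VP roots against 10.54, 10.50 and 10.53 in wild type roots. BHLH39, a factor of the iron deficiency response, read 6.64, 6.97 and 7.08 in mock VP roots against 7.70, 7.62 and 7.39 in wild type roots (-0.67 ± 0.11). The list of iron uptake and storage genes had 6 higher, 1 lower and 13 without a call of 20 (median 0.065). BHLH39 was thus its only lower gene, and the list shows no fall of uptake genes as a set. Phosphate starvation genes had 2 higher and 2 lower of 24, near the background share of calls, and 1 higher without any one wild type array or mock VP replicate 1. Without wild type replicate 3 or any one mock VP array 1 was lower, and array centring gave none higher and 5 lower.

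Flavonoid genes had 5 higher and 1 lower of 10, with 3 higher without wild type replicate 3, 2 lower without wild type replicate 1 and 3 lower after array centring. The lower one was MYBL2, a repressor of anthocyanin synthesis, at 5.72, 6.22 and 6.14 in mock VP roots against 7.60, 7.29 and 7.43 in wild type roots (-1.41 ± 0.14, adjusted p = 4.93e-07). All mock VP arrays lay below. MYB12, an activator of flavonol synthesis, was higher by 0.63 ± 0.12, and F3'H by 0.43 ± 0.10. FLS1 (0.39) was at 0.29 and short of the threshold without wild type replicate 3.

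Genes of the endodermis had 7 higher and 2 lower of 26. The suberin genes FAR4, FAR1 and CYP86B1, which make fatty alcohols and hydroxy acids of the polymer, rose by 0.56 ± 0.07, 0.55 ± 0.06 and 0.54 ± 0.08. CASP5, a protein of the Casparian strip, read 5.97, 6.13 and 6.41 in mock VP roots against 6.72, 6.87 and 7.21 in wild type roots (-0.76 ± 0.12). Without mock VP replicate 1 the count was 4 higher and 1 lower, without wild type replicate 1 4 were lower, and without wild type replicate 2 1 was lower. Root hair genes had 3 higher and 1 lower of 18, and between 1 and 5 higher with single arrays left out: 1 without mock VP replicate 1 or wild type replicate 2 and 5 without wild type replicate 1. The lower count was 0 without mock VP replicate 1, mock VP replicate 3 or wild type replicate 3 and 2 without wild type replicate 2. PRP3, a wall protein of root hairs, was higher by 0.52 ± 0.12.

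Several further lists are given in brief. Gibberellin (5 genes), heat shock (8), cell cycle (12) and reference genes (9) had no call by limma in either direction, with 1, 0, 4 and 2 genes at an unadjusted p under 0.05, in that order. Without wild type replicate 1, 2 heat shock genes and 1 cell cycle gene were higher and 1 reference gene was lower, and without mock VP replicate 2 1 cell cycle gene was higher. Genes of salicylic acid and immunity had 1 higher and 1 lower of 14, touch and rapid stress 1 and 1 of 14, and jasmonate 2 higher and none lower of 11. With single arrays left out, the lower count ranged between 0 and 2 for immunity (0 without mock VP replicate 3, wild type replicate 1 or wild type replicate 3, and 2 without wild type replicate 2). For touch the lower gene was lost without mock VP replicate 3 or wild type replicate 3, and 2 were higher without mock VP replicate 3 or wild type replicate 1. For jasmonate 1 was lower without wild type replicate 2. PAD3, the last enzyme of camalexin synthesis, was the higher immunity gene (0.70 ± 0.12). Low oxygen genes had 4 higher and 2 lower of 15 (40% called, against 18.1% of all genes). Among them were PCO1, a plant cysteine oxidase (0.88 ± 0.13), and the pyruvate decarboxylase PDC1 (-0.55 ± 0.07). Abscisic acid and cold genes had 3 higher and 1 lower of 17, with 1 higher without mock VP replicate 1, 2 lower without wild type replicate 1 and 4 lower after array centring. ER body genes had none higher and 1 lower of 5. Aquaporins had 4 higher and none lower of 16, led by PIP2;5 (0.49 ± 0.09).

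The genes with the largest differences also included members of none of these lists. UMAMIT29, of a family of amino acid exporters, read 10.27, 9.82 and 9.84 in mock VP roots against 8.12, 8.33 and 8.29 in wild type roots (1.73 ± 0.15, adjusted p = 7.12e-08). AT2G41480, annotated as a peroxidase, read 9.62, 9.04 and 8.95 in mock VP roots against 7.72, 7.84 and 7.87 in wild type roots (1.39 ± 0.12). In both genes all mock VP arrays were higher, with mock VP replicate 1 the highest. The serine carboxypeptidase-like scpl31 (1.46 ± 0.14), the phi-class glutathione transferase GSTF14 (1.29 ± 0.13) and HSFC1, a class C heat shock factor (1.1 ± 0.09), were next to them. AT4G01390 (1.13 ± 0.09) and AT3G19030 (1.12 ± 0.07) are annotated in the files as hypothetical proteins. FAH1, the ferulate 5-hydroxylase of syringyl lignin, was also higher by at least 1, at 1.03. AT5G19890, a peroxidase, differed by 1.2 with overlapping groups, since wild type replicate 1 (8.00) lay far above the other wild type arrays (6.12 and 5.99).

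The largest fall was that of 2 neighbouring pEARLI1-like genes of hybrid proline-rich proteins. AT4G12500 read 7.13, 6.70 and 6.75 in mock VP roots against 8.73, 8.93 and 9.16 in wild type roots (-2.08 ± 0.13), and AT4G12490 read 7.24, 7.16 and 7.24 against 9.42, 9.25 and 9.14 in wild type roots (-2.05 ± 0.11). These paralogues are similar in sequence, so their probe sets may share signal and the pair is uncertain as 2 separate results. TI1, a trypsin inhibitor (-1.55 ± 0.16), the peroxidase AT5G64120 (-1.42 ± 0.10), and AT2G16005 (-1.53 ± 0.15), AT5G54300 (-1.45 ± 0.11), AT5G40590 (-1.39 ± 0.17) and AT4G33550 (-1.32 ± 0.12) completed the 12 lowest. WRKY75, a factor of phosphate stress and senescence, read 6.96, 7.17 and 7.42 in mock VP roots against 8.35, 8.08 and 8.51 in wild type roots (-1.13 ± 0.12).

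The 5 root groups place these levels. The estradiol contrast shares the mock VP arrays with the main one and the starvation contrast shares the wild type arrays, so levels are given side by side and no overlap was counted. NIA1 averaged 11.00 ± 0.13 with estradiol, 10.40 ± 0.25 in mock VP, 10.47 ± 0.09 in starved overexpressor, 10.99 ± 0.15 in starved wild type and 8.53 ± 0.21 in sufficient wild type roots (SD, n = 3 each). Sufficient wild type was thus the lowest of the 5. UMAMIT29 was at 9.95 ± 0.05 with estradiol and 9.98 ± 0.25 in mock VP roots, against 7.3 ± 0.09 in starved overexpressor, 7.96 ± 0.45 in starved wild type and 8.25 ± 0.12 in sufficient wild type roots. Both VP groups were above all others. SEN1 was at 5.90 ± 0.14 with estradiol, 5.96 ± 0.34 in mock VP, 5.02 ± 0.11 in starved overexpressor, 4.69 ± 0.09 in starved wild type and 7.99 ± 0.18 in sufficient wild type roots, the highest of the 5. GAT1_2.1 was at 10.50 ± 0.09 with estradiol, 7.88 ± 0.36 in mock VP, 5.58 ± 0.16 in starved overexpressor, 5.40 ± 0.10 in starved wild type and 9.58 ± 0.12 in sufficient wild type roots, so that the mock level lay between those of the 2 other nitrogen-fed groups and the starved ones. UGT74E2 was at 8.68 ± 0.04 with estradiol and 8.14 ± 0.10 in mock VP roots, against 10.02 ± 0.06, 9.89 ± 0.03 and 9.55 ± 0.21 in starved overexpressor, starved wild type and sufficient wild type roots.

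**Figure D4:**
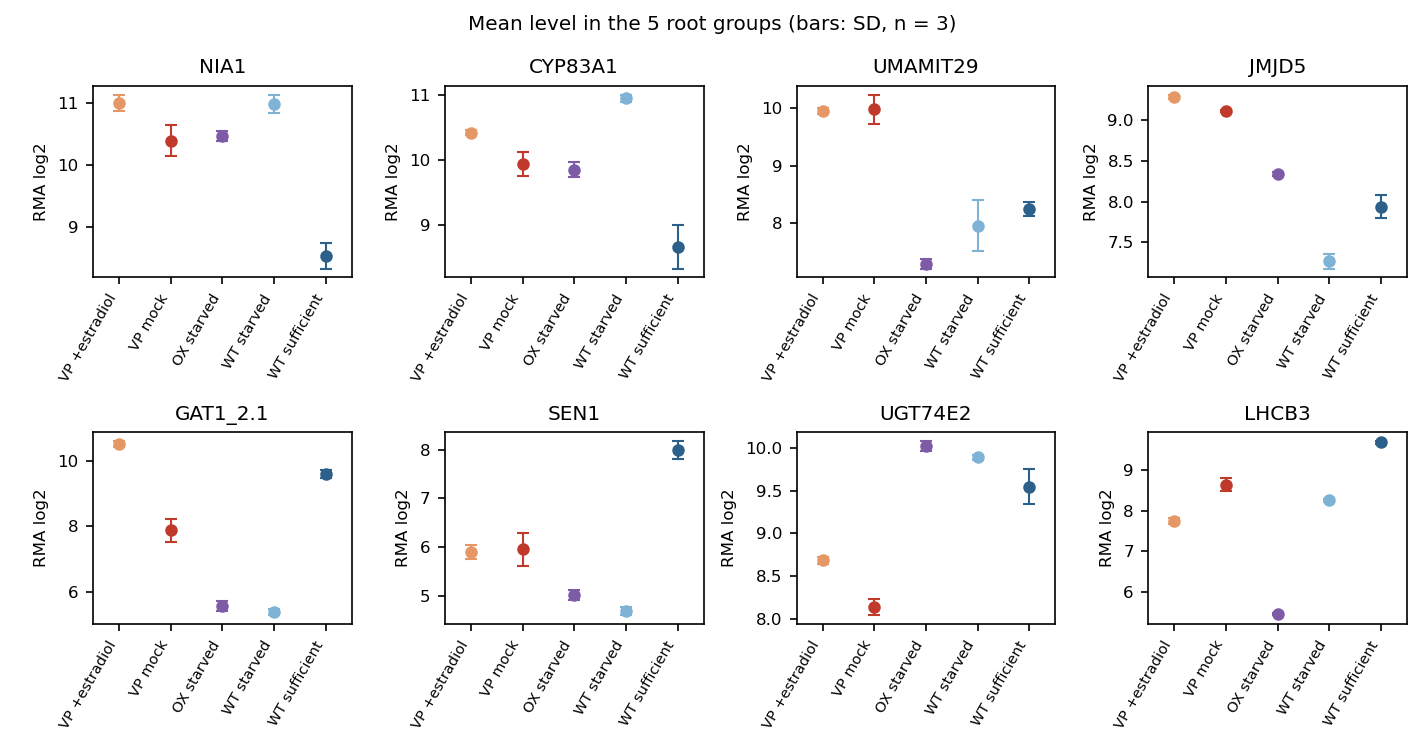
Mean level (RMA log2, bars are SD, n = 3) of 8 genes in VP roots with estradiol, mock VP, starved overexpressor, starved wild type and sufficient wild type roots. NIA1 and CYP83A1 are lowest and SEN1 and LHCB3 highest in sufficient wild type roots, and UMAMIT29, JMJD5 and UGT74E2 set both VP groups apart from the others.

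A second transgenic line offered a comparison with no array in common, the starved overexpressor against starved wild type. In that comparison 38.1% of probe sets passed, 21.4% higher and 16.7% lower in the overexpressor. Of 2724 genes called in mock VP roots, 1005 were called in the overexpressor in the same direction (36.9% of the mock VP calls and 17.4% of the overexpressor calls), and 491 in the opposite one (18.0% and 8.49%). The difference between the 2 contrasts itself passed for 3606 probe sets (22.6%). The overexpressor and its wild type were both moved at day 7 to plates without nitrogen. Line, nitrogen supply and handling therefore differ together between the 2 contrasts and cannot be told apart. JMJD5 was higher in both lines, by 1.18 ± 0.07 in mock VP and 1.08 in overexpressor roots, and the difference of 0.10 did not pass (adjusted p = 0.52). AT5G40590, AT2G34610, AT3G26460 and AT5G59540 were lower in both, by -1.39, -1.12, -1.11 and -1.09 in mock VP and by -2.13, -1.77, -1.74 and -1.09 in overexpressor roots. These genes and JMJD5 were picked for being called the same way in both. The difference between the 2 effects passed in the limma fit for AT5G40590 (adjusted p = 0.027), AT2G34610 (0.0035) and AT3G26460 (0.035). It did not for AT5G59540. Aliphatic glucosinolate genes ran the other way in the overexpressor against starved wild type. Of 15, 13 were lower and none higher (median -0.69). For CYP83A1 the mock VP difference exceeded that of the overexpressor by 2.38 (adjusted p = 3.00e-10), and for GSTF11 by 1.62. The wild type references differed too, so these signs do not order the levels of the 2 lines. CYP83A1 averaged 9.94 in mock VP and 9.85 in overexpressor roots, against 8.66 in sufficient and 10.95 in starved wild type roots. GSTF11 averaged 7.40, 7.78, 6.31 and 8.31 and MAM1 9.68, 8.67, 8.90 and 10.19 in that order. Nitrate assimilation had 9 higher and none lower of 12 in mock VP roots and 1 higher and 10 lower in the overexpressor (median -0.28). Photosynthesis genes were lower in both (17 of 23 in mock VP and 22 of 23 in overexpressor roots), and xenobiotic genes were not, with 9 of 12 lower in mock VP roots and 4 of 12 higher in the overexpressor.

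Shoots of the 2 main groups, on other arrays, had 33.4% of probe sets called, 17.7% higher and 15.8% lower in mock VP shoots. The labels do not say whether the roots and shoots came from the same seedlings. Among 13811 genes tested in both organs, 840 were called in the same direction (34.3% of 2449 root calls and 18.2% of 4608 shoot calls) and 163 in the opposite one. Xenobiotic genes were lower in both organs: 8 of the 10 measured in shoots, with a median of -1.23. UGT74E2 differed by -1.41 in roots and -1.65 in shoots, UGT75B1, another glucosyltransferase, by -1.26 and -1.50, SUFE2, an activator of iron-sulfur cluster assembly, by -1.20 and -1.31, and AT4G01870 by -1.19 and -1.48. For UGT74E2 the wild type shoot arrays were widely spread (SD 0.86, against 0.11 in mock VP shoots), and the shoot difference had a standard error of 0.29. JMJD5 was higher by 2.58 in shoots, and the morning clock had 5 of 9 genes lower and 1 higher there (range -1.08 to 2.49). NIA1 did not pass in shoots (-0.18). Of the aliphatic glucosinolate genes, none was higher and 5 were lower in shoots, and 5 of 23 photosynthesis genes were lower there against 17 in roots. These differences between organs were not tested, since the 2 tissues were normalized in separate tables.

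**Figure D5:**
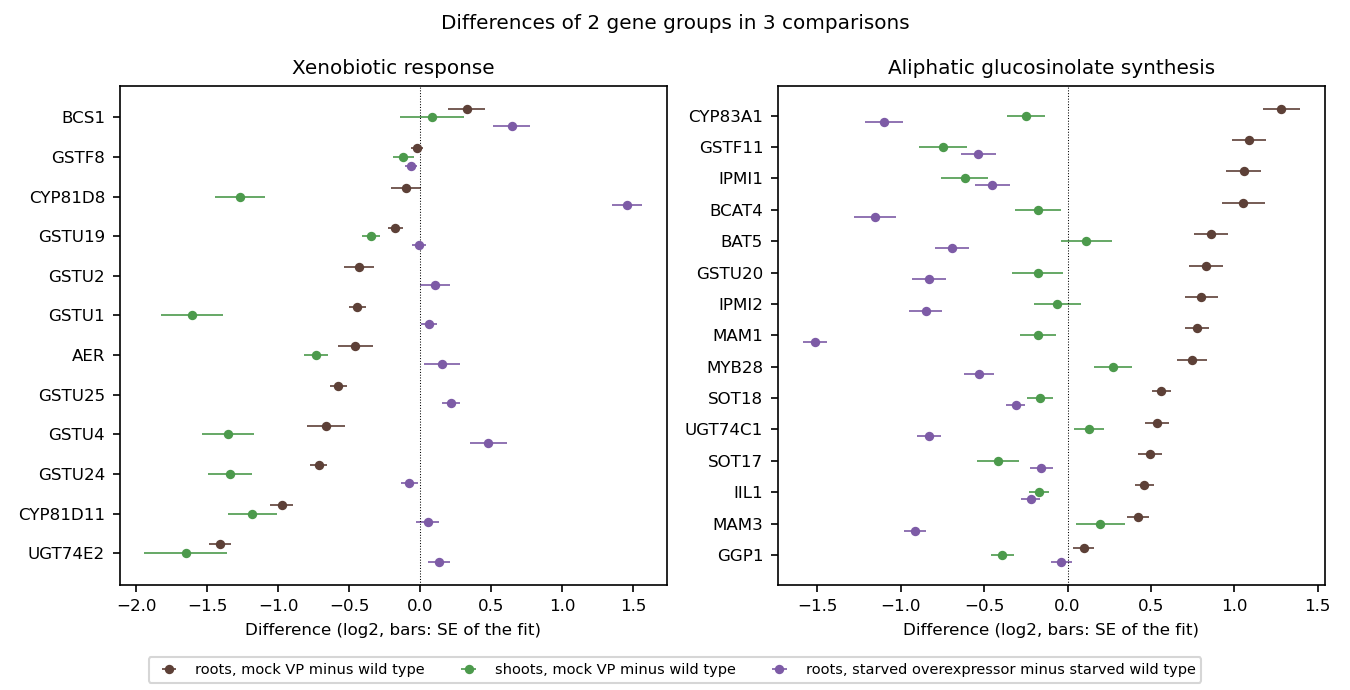
Differences (log2, bars are the standard error of the fit) of xenobiotic response and aliphatic glucosinolate genes in 3 comparisons: mock VP minus wild type in roots (brown) and in shoots (green), and starved overexpressor minus starved wild type in roots (violet). Xenobiotic genes are mostly lower in both organs of the VP line, and 14 of the 15 aliphatic glucosinolate genes were higher in mock VP roots and 13 lower in the overexpressor.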

How the data were processed

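Total RNA was hybridised to Affymetrix arrays. The authors deposited log2 values for roots and shoots as separate tables, made with RMA per the file headers, while the submitters' processing notes name MAS5. Versions are not given in the sources used here. The series value table matched them. The files give no detection calls, batches or genome build, so no coordinates are printed. Of 22746 probe sets, 21452 had 1 gene, 1110 several and 184 none, and 21278 matched a TAIR10.1 table of symbols.

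Testing covered the 15922 probe sets whose mean level over the 15 root arrays reached the 30th percentile. Where a gene had several single-gene probe sets, the brightest stood for it, which left 15086 genes. The fit used limma (version 3.58.1, under R 4.3.3), with a mean per group, an intensity trend, two-sided tests and Benjamini-Hochberg adjustment. It was run on simulated data with independent noise, 200 changed probe sets and no offset between arrays, where 4.8% of calls were false. Those data could not check how the calls depend on scaling. The number of arrays limits the precision: an exact test of 3 against 3 cannot go below p = 0.1. Titles call the replicates biological, without naming separate cultures, so p-values reflect only how these arrays vary. The authors' deposited p-values and q-values, headed as Welch and Benjamini-Hochberg columns per the file headers, were not used.

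The 31 lists (596 loci, 458 tested) and the members were chosen with earlier results of these data known. Named genes were the 12 highest and 12 lowest called without overlap, up to 4 called per list, the NIGT1 family and 7 nitrate genes, and 5 shared with each of 2 other comparisons; other names were chosen after their values were seen. Alternatives covered filters, scaling, arrays, variance and replicates. Promoter motifs were not analysed here.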

Additional observations from a re-analysis of the deposited data

Results flagged for a closer look

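The 128 named genes were searched for differences of at least 1 in roots and at least 0.5 in shoots, with no test between organs. Of those, 4 had every mock VP array on one side of the wild type arrays in roots and on the other in shoots. They were scpl31 (1.46 in roots and -0.62 in shoots, where it did not pass in the limma fit, adjusted p = 0.18), GSTF11 (1.09 and -0.75), AT2G16005 (-1.53 and 1.28) and SWEET12 (-1.14 and 0.57). In roots, 6 of the 128 named genes met a second rule. It asked for called differences of at least 1, one way in mock VP and the other way in the starved overexpressor. It also asked that the difference between the 2 effects pass in the limma fit, so its passing is no separate result. This difference was 2.85 for scpl31 (adjusted p = 6.48e-10), 4.195 for GSTF14 (3.85e-13) and 2.38 for CYP83A1 (3.00e-10). It was 5.12 for AT4G01390 (5.82e-17), 2.38 for AT3G19030 (1.65e-13) and -2.66 for TI1 (9.77e-09). AT4G01390 itself differed by 1.13 in mock VP and -3.99 in overexpressor roots.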

How the results depend on the processing

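The lines and the plates were changed together, and the arrays carry no batch label, so batch and group cannot be told apart. Small differences took their sign partly from the scaling. Centring arrays on their median left 1017 probe sets higher and 1677 lower (2694 called, median difference -0.02) and quantile normalization 1378 and 1297 (2675). Fitting only the 6 arrays gave 1847 calls, 1113 of them higher. Leaving out single arrays gave 1612 to 3086 calls (964 to 2066 higher, 648 to 1020 lower) in the main comparison. It gave 3943 to 4910 in shoots, 4961 to 5892 for the overexpressor and 3028 to 3772 for the difference between the 2 root contrasts. Filters, variance settings and the series value table left the root count between 2295 and 3043. Replicate numbers did not pair the samples (correlations of -0.01, 0.009 and -0.041), and a replicate block gave 2908 calls (1932 higher, 976 lower). Among 128 named genes, 1893 alternative values held 94 below the threshold for genes called in the main setting, spread over 24 of 121 called genes, and 10 with the sign turned, all in genes without a call. After array centring these were NIGT1.4 (-0.0255) and NIGT1.1 (-0.0597), and after quantile normalization NIGT1.1 (-0.0179). With single arrays left out, NIGT1.4 ranged between -0.0338 and 0.1006, NIGT1.1 between -0.0525 and 0.0504, HHO4 between -0.1374 and 0.0678 and NRT2.4 between -0.2969 and 0.0311. The cause was not tested.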

Other observations

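Gene families were also taken from symbols and array descriptions after the values were seen, so their counts are descriptions. They share genes with the lists above, such as GSTU24, GSTU20, GSTF11, UGT74E2 and SWEET12, and are not separate results. Amino acid exporters of the UMAMIT family had 10 higher and 3 lower of 27, with UMAMIT14 at 0.82, UMAMIT17 at 0.62 and UMAMIT33 at -1.03. Tau-class glutathione transferases, which conjugate toxic compounds, had 3 higher and 10 lower of 25. UDP glycosyltransferases had 7 higher and 12 lower of 39, the higher ones including UGT84A2 and UGT84A1 of phenylpropanoid metabolism (0.71 and 0.55). WRKY factors had 5 higher and 5 lower of 43, and WRKY45, which regulates phosphate uptake, was lower by -0.94 ± 0.09. The count of higher WRKY genes was 3 without mock VP replicate 1 and after array centring, where 9 were lower. Cytosolic ribosomal proteins had 6 higher and none lower of 91, and none higher without mock VP replicate 1, without wild type replicate 2 or after array centring. The shares called were 48.1%, 52%, 48.7%, 23.3% and 6.59% in these families in that order, against 18.1% of all genes. Proteasome subunits had 1 higher and none lower of 40, histones 1 and 1 of 34 and organellar ribosomal proteins 1 and 2 of 26. After array centring these counts were 1 and 6, 0 and 7, and 1 and 5, in that order. Class III peroxidases had 7 and 7 of 51, xyloglucan endotransglucosylases 4 and 2 of 22 (3 and 5 after array centring) and alpha expansins 4 and 0 of 16. Phi-class glutathione transferases had 2 and 0 of 6 and SWEET transporters 1 and 1 of 8.

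Among the other genes lower by at least 1 were CCL, a clock-controlled transcript (-1.27 ± 0.17), the cation exchanger CHX17 of the root (-1.19 ± 0.12) and the malonyltransferase PMAT1 (-1.11 ± 0.10).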
